A study of Homo sapiens with 6 samples.

Results

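The HOX gene clusters are 4 runs of homeobox genes, HOXA on chromosome 7, HOXB on chromosome 17, HOXC on chromosome 12 and HOXD on chromosome 2. All 39 protein-coding genes whose symbol is HOXA, HOXB, HOXC or HOXD plus a number were taken from the RefSeq gene table of GRCh38.p14. HOXA holds 11 of them, HOXB 10, HOXC 9 and HOXD 9. Members are the accessible sites of the deposited site table that overlap 1 of these gene bodies extended by 10 kb on each side. They came to 77 of 181135 sites, of which 11 lay in HOXA, 26 in HOXB, 21 in HOXC and 19 in HOXD. The choice used position only and no measured value.

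The assay was ATAC-seq, in which a transposase cuts open DNA and leaves sequencing adapters, so that the reads over a site count how often it was cut. The cells were K562, an established human leukaemia line with erythroid features, and the labels give all 6 libraries the WT genotype. By their labels the groups differ only in time with 25 nM phorbol 12-myristate 13-acetate (PMA), an activator of protein kinase C. The times were 0 h, 6 h and 72 h, with 2 libraries each. The series' design text says that the treatment takes K562 to a state like that of megakaryocytes, the cells that shed platelets. The medium was changed after 24 and 48 h, the cells were lifted with EDTA and nuclei were made by the Omni-ATAC protocol. No label gives untreated cells kept for 72 h, so medium changes and time in culture cannot be told apart from PMA. The labels do not say that the 2 libraries of a time point came from separate cultures, so the p-values measure only the spread between these libraries, which may be technical.

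HOX genes encode transcription factors that give cells their position along the body axis, and in each cluster they are arranged in the order in which they act, from low-numbered (anterior) to high-numbered (posterior) genes. The same number in different clusters marks paralogues, the copies that came from one ancestral gene. In blood, HOXA and HOXB genes are known for their activity in stem and progenitor cells and for being shut off as these cells mature, and Polycomb and Trithorax complexes keep the clusters silent or active. Several microRNA and antisense RNA genes lie between the HOX genes.

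Counts in the 181135 sites ran from 12258890 to 35548737 per library. CPM below is the read count of a site scaled to the library size by TMM, in the usual unit, and a log2 fold change is from edgeR's quasi-likelihood fit over all 6 libraries, with its standard error (SE) and a p-value adjusted over all 177759 tested sites. A site was called at an adjusted p under 0.05. For genes outside the clusters and for noncoding genes, the site was read at an annotated start or, where the promoter table holds no entry and so no strand, at either end of the gene. Of 8 genes that mark K562, 7 had a site so placed, at mean levels of 8.49 to 56.7 CPM at 0 h. KLF1 had none. Of 8 markers of lymphoid, epithelial and fibroblast cells, 6 had a site so placed at 0.130 to 21.4 CPM, and the other 2 had none. Of these 6, only that of KRT5 was at an annotated start. All 7 K562 marker sites were called lower at 72 h than at 0 h, with a median of -1.58. Among sites at the ends of any protein-coding gene 68.7% were called lower, with a median of -1.16. Of the 6 sites at markers of the other cells, 3 were called lower and 1 higher. Of all counts, the strongest 1% of sites held 21.7% and 20.5% before treatment, 17.7% and 16.3% after 6 h, and 11% and 11.1% after 72 h. The K562 marker sites and the share of the strongest 1% were thus both lower at 72 h than at 0 h. Their part in the HOX values below was not tested.

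The microRNA genes of the clusters are shown first, because members of 1 family sit in different clusters and their nearest sites can be compared. The mature sequences are those of RefSeq (GRCh38.p14), written 5′ to 3′ with the seed, bases 2 to 8, in capitals.
hsa-miR-196a-5p: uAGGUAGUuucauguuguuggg
hsa-miR-196b-5p: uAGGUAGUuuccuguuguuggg
hsa-miR-10a-5p: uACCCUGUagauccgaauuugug
hsa-miR-615-3p: uCCGAGCCugggucucccucuu
The miR-196 copies share the seed AGGUAGU and lie in 3 clusters: MIR196A1 in HOXB, MIR196A2 in HOXC and MIR196B in HOXA. The nearest site to MIR196A1 was 879 bases away, beside HOXB9, and the nearest to MIR196A2 was 2203 bases away, in HOXC10. MIR196B had its nearest site 7973 bases away, between HOXA7 and HOXA9. The site at the HOXB4 start was 733 bases from MIR10A, and a weak site in the bodies of HOXC4 and HOXC5 was 969 bases from MIR615. The log2 fold changes of these 5 sites from 0 to 72 h were -1.67 for MIR196A1, -0.94 for MIR196A2, -1.20 for MIR196B, -1.46 for MIR10A and -1.39 for MIR615. Each of the 5 was called lower by edgeR at 72 h, against a background of 29.2% of all tested sites and 68.7% of sites at gene ends. Those of MIR196A1 and MIR10A were called lower under all 5 scalings described below, and the other 3 were not. The nearest site to MIR10B, 1410 bases away at the HOXD4 start, was also called lower (-2.67), on few reads.

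RefSeq promoter windows, from 250 bases before to 50 after a gene start, were at hand for 9 HOXA, 1 HOXB, 2 HOXC and 8 HOXD genes. The upstream 250 bases of HOXD10 and HOXD1 follow, as 2 starts of 1 cluster that a site covered in full or in part and that differed in their calls. HOXD10 lies on the plus strand with its window at chr2:176116528-176116777, and HOXD1 on the plus strand at chr2:176188418-176188667 (GRCh38.p14). None of the motifs searched occurs in these stretches, so no letter is in capitals.
HOXD10 upstream: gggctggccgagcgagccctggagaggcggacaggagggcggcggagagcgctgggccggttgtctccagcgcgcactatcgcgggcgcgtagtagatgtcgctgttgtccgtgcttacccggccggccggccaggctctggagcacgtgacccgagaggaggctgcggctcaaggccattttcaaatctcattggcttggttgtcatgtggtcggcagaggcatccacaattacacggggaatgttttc
HOXD1 upstream: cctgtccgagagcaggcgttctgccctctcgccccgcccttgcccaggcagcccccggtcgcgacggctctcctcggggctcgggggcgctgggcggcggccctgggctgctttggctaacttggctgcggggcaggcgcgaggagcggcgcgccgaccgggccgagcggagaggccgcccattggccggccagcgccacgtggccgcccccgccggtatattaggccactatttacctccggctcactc
The HOXD10 stretch holds 23 CpG at a GC content of 64.0%, and the HOXD1 stretch 31 CpG at 74.8%. The HOXD10 start site was called lower at 72 h, though not under all 5 scalings described below. The HOXD1 start site, with 11 and 18 reads at 0 h, was not called. Values are given below, and the difference between the 2 changes was not tested.

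HOX promoter windows were rich in CpG. Over 26 distinct windows of HOX genes the median ratio of observed to expected CpG was 0.855, against 0.577 over all 34943 windows in the table, while the median GC content was 58.0% against 58.7%. Before duplicates were removed, HOXA held 16 of the window entries, HOXD 8, HOXC 2 and HOXB 1, so they say little of HOXB and HOXC. Motifs were searched on both strands. The AP-1 letters TGANTCA, bound by factors that PMA is known to induce, were in 0 of 26 windows and in 7.72% of all windows. The letters TTTATNG, which posterior HOX proteins can bind, were in 6 of 26 windows, of HOXA3, HOXA9, HOXA10, HOXC4 and HOXD8, and in 9.75% of all. TGATTGAT, a site for HOX with PBX, was in 2 windows, of HOXA2 and HOXD11, and in 0.487% of all. The GATA letters AGATAA were in 2 windows, both of HOXA3, against 10.4% of all. A match is a run of letters in the window and not a site shown to be bound.

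Before treatment the 4 clusters differed in how open they were. They are compared by CPM per kb of territory. Territory is the length of the extended gene bodies, 127 kb in HOXA, 142 kb in HOXB, 137 kb in HOXC and 123 kb in HOXD, where HOXB is in 2 pieces because HOXB13 lies apart. Summed over its sites, HOXB had 1.96 and 2.24 CPM per kb in the 0 h libraries and HOXC 1.1 and 1.21. HOXD had 0.540 and 0.576 CPM per kb and HOXA 0.136 and 0.161. The libraries of no cluster overlapped those of another at 0 h, and the order HOXB, HOXC, HOXD, HOXA held in each of them. The deposited site list, which covers all times, holds 8.65 sites per 100 kb in HOXA, 18.3 in HOXB, 15.3 in HOXC and 15.4 in HOXD, and not all of these had a peak before treatment. The number of copies of each cluster in K562 was not measured here, and a difference in copies cannot be told apart from one in accessibility when levels of clusters are compared.

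HOX genes with and without sites were spread unevenly over the clusters. A site overlapped the body of 3 of 11 HOXA genes, 8 of 10 HOXB genes, 8 of 9 HOXC genes and 5 of 9 HOXD genes. HOXA3, HOXB3 and HOXC4 are long gene models that span other HOX genes, so a site in their body can lie nearer to another gene's start. A site within 1 kb of an annotated start was found for 22 of 39 genes: 3 in HOXA, 6 in HOXB, 7 in HOXC and 6 in HOXD. HOXC4, HOXC5 and HOXC6 share 1 annotated start and HOXD3 and HOXD4 share 1 start site, which leaves 19 distinct start sites. The 17 genes without one include 8 of 11 HOXA genes, HOXA9, HOXA11 and HOXA13 among them, as well as HOXB3, HOXB8 and HOXD9.

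Deposited peaks called in the single libraries showed the same order. At 0 h a peak overlapped 3 HOXA sites in both libraries, 15 and 17 HOXB sites, 10 and 9 HOXC sites, and 5 and 6 HOXD sites. At 72 h these numbers were 8 and 6 in HOXA, 21 and 21 in HOXB, 13 and 14 in HOXC, and 13 and 10 in HOXD. The 6 h libraries lay between 1 and 5 in HOXA, 12 and 19 in HOXB, 8 and 11 in HOXC, and 7 and 8 in HOXD. In all clusters the numbers at 72 h were above those at 0 h without overlap. The number of peaks in the whole list was also higher, with 61873 and 69152 peaks at 0 h and 138914 and 142305 at 72 h, and its part in the HOX numbers was not tested.

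On the TMM scale, accessibility summed over HOXB and HOXC fell by 72 h of PMA, HOXD fell by less, and HOXA did not pass the test. Other scalings changed part of this, as given below. HOXB went from 1.96 and 2.24 CPM per kb at 0 h to 1.33 and 1.70 at 6 h and 0.897 and 0.902 at 72 h. HOXC went from 1.1 and 1.21 to 0.841 and 0.882 and then to 0.511 and 0.491 CPM per kb. In both clusters the 3 time points did not overlap. HOXD had 0.540 and 0.576 CPM per kb at 0 h, 0.559 and 0.475 after 6 h, and 0.438 and 0.396 after 72 h. HOXA had 0.136 and 0.161 at 0 h, 0.117 and 0.130 after 6 h, and 0.167 and 0.171 after 72 h. The HOXD libraries overlapped between 0 and 6 h and those at 72 h were lowest, while the HOXA libraries at 72 h were highest.

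**Figure D1:**
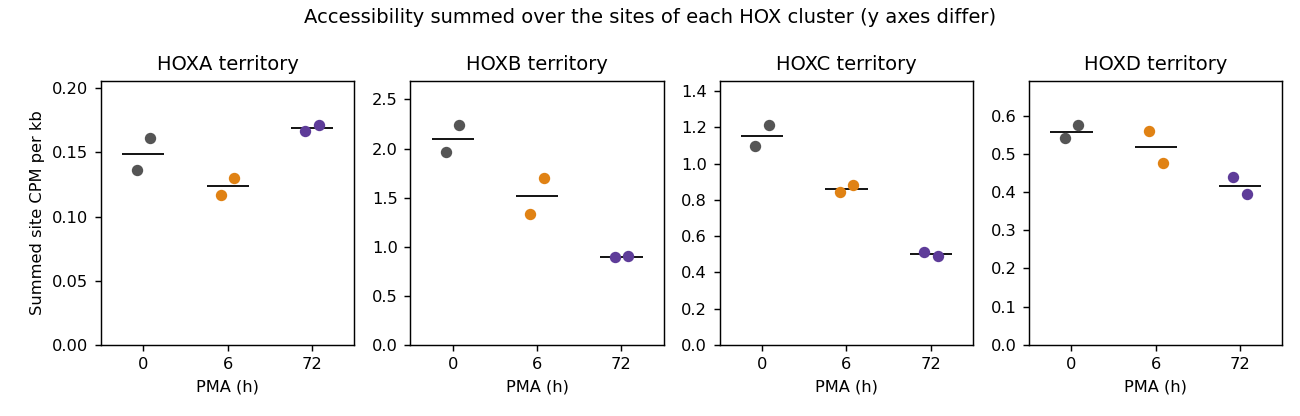
Summed CPM of the sites of each cluster per kb of territory (y axis, scale differs between panels) against hours of PMA; points are libraries and bars the mean of 2. On this TMM scale HOXB and HOXC step down at 6 h and again at 72 h, HOXD is lowest at 72 h, and HOXA stays between 0.117 and 0.171 CPM per kb.

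Tested as sums of counts in the fit over the whole table, HOXB changed by -1.22 at 72 h against 0 h on the log2 scale (SE 0.12, adjusted p = 2.97e-08) and HOXC by -1.21 (SE 0.12, adjusted p = 2.75e-08). HOXD changed by -0.42 (SE 0.14, adjusted p = 0.0103), and without the second 72 h library this was -0.35 and not called. HOXA came to 0.18 (SE 0.17, adjusted p = 0.351). At 6 h HOXB changed by -0.47 (SE 0.12, adjusted p = 0.00446) and HOXC by -0.42 (SE 0.12, adjusted p = 0.00789). Leaving out the second 0 h library or the first 6 h library ended both 6 h calls, with -0.36 and -0.30 in HOXB and -0.35 and -0.39 in HOXC. HOXA and HOXD came to -0.26 and -0.11 at 6 h and were not called, with adjusted p of 0.242 and 0.540. Between 6 and 72 h HOXB changed by -0.76 (SE 0.12, adjusted p = 5.17e-05), HOXC by -0.78 (SE 0.12, adjusted p = 2.98e-05) and HOXA by 0.45 (SE 0.17, adjusted p = 0.0404), and HOXD by -0.31 (adjusted p = 0.0771). The HOXA call was lost when any of the 6 h or 72 h libraries was left out, with values of 0.37 to 0.58.

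These directions rest on how libraries are scaled to each other. Besides TMM, 4 other scalings were run: DESeq2's size factors (RLE), library totals, loess offsets that remove a trend with abundance, and TMM factors from the sites with a peak in all 6 libraries. They moved the median log2 fold change of all sites at 72 h against 0 h from 0.29 to 0.11, 0.79, -0.05 and 1.26. At 72 h the HOX calls split into 8 higher and 38 lower with TMM, 8 and 39 with RLE, 16 and 24 with totals, 4 and 47 with loess offsets, and 25 and 11 with shared peaks. At 6 h the splits were 7 higher and 15 lower, 5 and 19, 7 and 10, 2 and 23, and 10 and 6 in the same order. Between 6 and 72 h they were 2 and 26, 2 and 27, 6 and 15, 2 and 21, and 11 and 1. The median HOX site differed from the median of all sites by -1.03 with TMM, -1.03 with RLE, -1.03 with totals and -1.02 with shared peaks. These scalings use 1 factor per library, which moves all sites nearly alike. Their match was therefore fixed in advance and is no evidence. With loess offsets, which could change it, the distance was -0.91. With shared peaks the cluster sums at 72 h were 1.15 in HOXA (called), -0.25 in HOXB (called), -0.24 in HOXC (not called) and 0.55 in HOXD (called). Totals gave 0.68 in HOXA (called), -0.72 and -0.70 in HOXB and HOXC (both called) and 0.08 in HOXD (not called). Loess offsets turned the sums to 1.18 in HOXB, 0.80 in HOXC and 1.16 in HOXD, and gave 0.85 in HOXA, while the same offsets made more single sites lower. For a sum these offsets are read at an abundance above that of its single sites. Which direction a HOX value takes is therefore stated for TMM below, and the sites whose call held under all 5 scalings are named.

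Ratios of the counts of 2 clusters within a library are the same under any scaling that uses 1 factor per library. Loess offsets, which vary with abundance, are not of that kind, and the order of the cluster sums at 72 h given for them above differs from that of these ratios. The log2 ratio of HOXA to HOXB counts was -4.01 and -3.95 at 0 h, -3.67 and -3.87 after 6 h, and -2.58 and -2.55 after 72 h. That of HOXA to HOXC was -3.12 and -3.02 at 0 h, -2.96 and -2.87 after 6 h, and -1.72 and -1.63 after 72 h. In both ratios the 72 h libraries stood above the others without overlap, by 1.41 and 1.39 against 0 h. HOXA to HOXD was higher by 0.61 in the mean, with -1.95 and -1.79 in the 0 h libraries against -1.35 and -1.16 in those of 72 h, again without overlap. HOXB to HOXD went from 2.06 and 2.16 to 1.23 and 1.39, and HOXC to HOXD from 1.17 and 1.23 to 0.37 and 0.46. HOXB to HOXC was 0.89 and 0.93 at 0 h and 0.86 and 0.93 at 72 h, so these clusters overlapped. A two-sided exact permutation test of 2 libraries against 2 cannot go below p = 0.333, which is its value for each of the 5 ratios that did not overlap. Without the strongest site of each cluster, an alternative chosen after seeing the data, the differences were 0.82 for HOXA to HOXB, 0.89 for HOXA to HOXC and 0.21 for HOXA to HOXD.

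**Figure D2:**
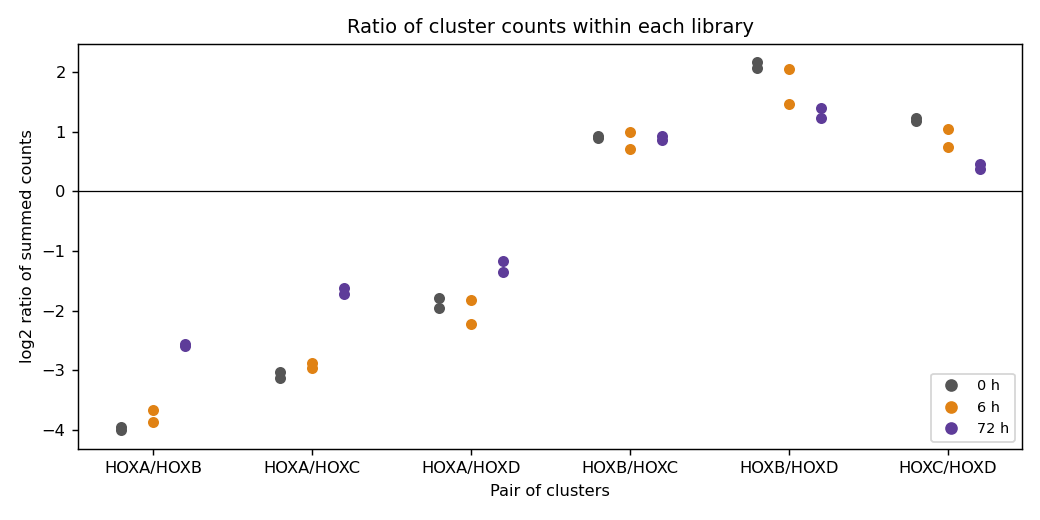
Log2 ratio of the summed counts of 2 clusters within each library (y axis) for the 6 pairs of clusters (x axis); each point is a library, coloured by hours of PMA. Ratios with HOXA as numerator are highest at 72 h, and HOXB to HOXC stays between 0.71 and 1.00.

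As shares of all HOX signal, HOXA held 3.37% and 3.56% of the CPM before treatment, 3.82% and 3.78% after 6 h, and 7.78% and 8.19% after 72 h. HOXB held 54.3% and 55.2% before treatment against 46.7% and 48.1% after 72 h, and HOXD 13% and 12.3% against 19.8% and 18.4%. All HOX sites together took 0.0446% and 0.0492% of the counts of a library at 0 h and 0.0340% and 0.0317% at 72 h. HOXB thus stayed the largest part of a smaller total at 72 h.

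Site by site, 75 of the 77 sites passed the filter on low counts, and the 2 that did not were weak HOXA sites. At 6 h edgeR called 22 of 75 sites (29.3%) against a background of 40.1% of all tested sites, 7 higher (background 23.4%) and 15 lower (background 16.8%). At 72 h it called 46 sites (61.3%) against 67.4%, 8 higher against a background of 38.2% and 38 lower (50.7%) against 29.2%. At 72 h against 6 h it called 28 sites against 42.9%, 2 higher against 22.1% and 26 lower against 20.9%. The share of HOX sites called was thus not above the background in any comparison, and among sites at the ends of any protein-coding gene 68.7% were called lower at 72 h and 12.3% higher. At 6 h 36.2% of the gene-end sites were lower and 9.96% were higher. Between 6 and 72 h 60.6% of them were lower and 6.42% were higher. The median log2 fold change at 72 h was -0.74 over HOX sites, 0.29 over all tested sites and -1.16 over sites at gene ends.

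Read by whether the libraries of 2 groups overlap, 15 HOX sites were higher without overlap at 6 h (background 36.0%) and 31 lower (background 32.0%). At 72 h against 0 h 14 were higher (background 47.7%) and 44 lower (background 36.9%), and at 72 h against 6 h 11 were higher (background 37.7%) and 41 lower (background 35.4%). With an adjusted p under 0.01 and a log2 fold change beyond 1 in either direction, edgeR called 6 HOX sites at 6 h (background 23.5%), 30 at 72 h (background 51.4%) and 9 between 6 and 72 h (background 22.6%).

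Most lower sites were in HOXB and HOXC, which also held most of the tested sites. At 72 h HOXB had 18 lower and 1 higher of 26 tested, and HOXC 12 and 2 of 21. HOXD had 5 lower and 2 higher of 19, and HOXA 3 and 3 of 9. In this order the lower shares were 69.2%, 57.1%, 26.3% and 33.3%, against 29.2% of all tested sites and 68.7% of gene-end sites. At 6 h HOXB had 11 lower (42.3%) and 3 higher, HOXC 3 (14.3%) and 2, HOXA 1 (11.1%) and 1, and HOXD 1 higher. The background at 6 h was 16.8% lower and 23.4% higher. HOXD had 0 lower sites at 6 h by edgeR, with 1 at an unadjusted p under 0.05 and 1 called by DESeq2. The medians at 72 h were 0.77 in HOXA, -1.0 in HOXB, -1.01 in HOXC and -0.16 in HOXD. Both comparisons use the same 0 h libraries: 15 sites were lower at both times, 3 were higher at both, 23 were lower at 72 h and not called at 6 h, and 4 were called at 6 h only. The share over all sites was not computed for these.

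**Figure D3:**
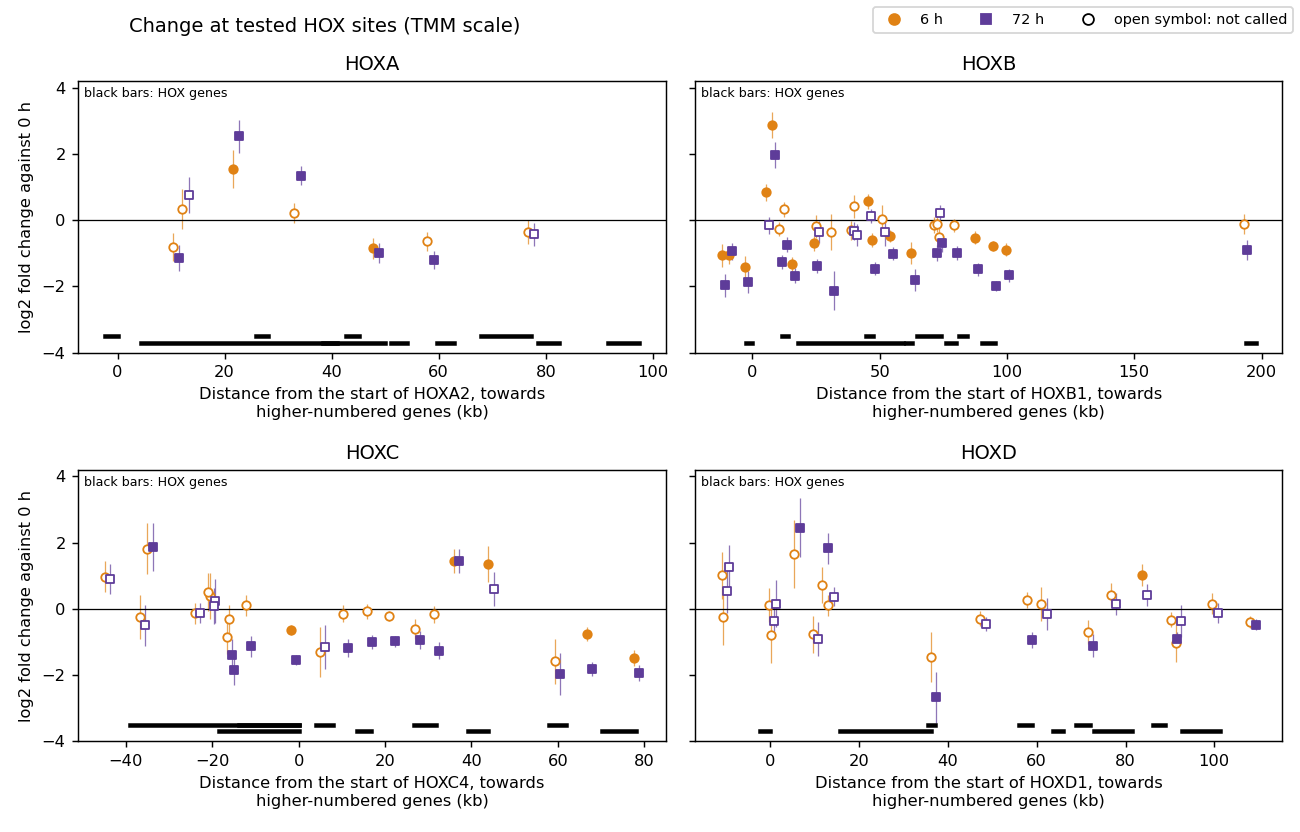
Log2 fold change against 0 h with its SE (y axis) of the tested sites along the clusters, those at 1 gene start left out (x axis, kb from the start of HOXA2, HOXB1, HOXC4 or HOXD1 towards higher-numbered genes; symbols of the 2 times are drawn 1.2 kb apart). Circles are 6 h, squares 72 h, open symbols were not called and black bars are HOX genes; most HOXB and HOXC squares lie below 0, and the HOXA squares lie on both sides of 0.

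Most sites with a peak in every library were lower, and sites without a peak at 0 h were mixed. On the TMM scale each of the 21 HOX sites that held a peak in every library had a negative log2 fold change at 72 h. Of these 20 (95.2%) were called lower, against 67.8% of all 35751 tested sites with a peak in every library, and the other was a HOXD site between HOXD8 and HOXD4 (-0.46, adjusted p = 0.0541). At 6 h 8 of the 21 were called lower, against 35.0% of all such sites, and between 6 and 72 h 17 were, against 57.5%. Scaling from shared peaks takes its factors from such sites, and under it fewer HOX sites were lower, as given above. In contrast, among 15 sites with no peak at 0 h and one in both 72 h libraries, 4 were called higher and 2 lower. That group was drawn with the 72 h peaks in view, so its direction is no test. By nearest gene start, sites of groups 1 to 3 were lower in 10 and higher in 5 of 25 tested, sites of groups 4 to 8 in 14 and 2 of 29, and sites of groups 9 to 13 in 14 and 1 of 21. Over all tested sites 29.2% were lower and 38.2% higher at 72 h. The paralogue groups are given as counts of sites and were not tested against each other.

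**Figure D4:**
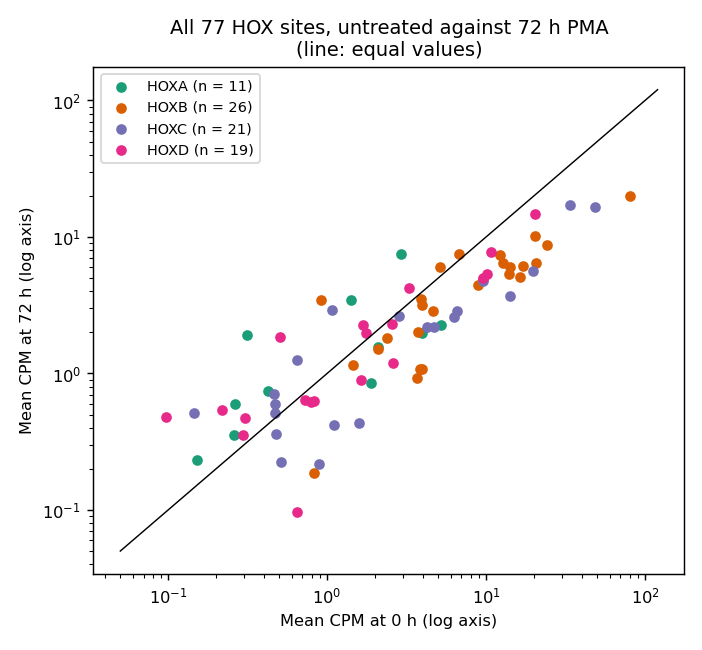
Mean CPM at 72 h (y axis) against mean CPM at 0 h (x axis) for the 77 HOX sites, both on log axes, coloured by cluster; the line marks equal values. Sites above 10 CPM at 0 h all lie below the line on the TMM scale, and HOXA sites stay under 10 CPM at both times.

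HOXA is the cluster of HOXA9 and HOXA10, known for their role in myeloid progenitors and leukaemia. It had the lowest CPM per kb of the 4 clusters in each library. Against the whole site list it was not low, as its sites had a median level of 1.42 CPM at 0 h, against 1.39 CPM over all 181135 sites. Its most accessible site by the mean of all libraries lay in the HOXA3 gene model, 5024 bases from the HOXA4 start (chr7:27135781-27136887). It had 2.47 and 3.39 CPM at 0 h, 2.39 and 4.11 after 6 h, and 6.94 and 8.12 after 72 h. Both 72 h libraries stood above the other 4, and the change from 0 h was 1.34 (SE 0.28, adjusted p = 0.000245) and from 6 h 1.14 (SE 0.27, adjusted p = 0.00198). A weaker site at HOXA-AS2, an antisense RNA gene inside HOXA3 (chr7:27124537-27125138), had 0.195 and 0.430 CPM at 0 h, 1.19 and 0.823 after 6 h, and 1.66 and 2.17 after 72 h. Its libraries did not overlap between any of the times, and edgeR gave 1.54 at 6 h (SE 0.56, adjusted p = 0.0319) and 2.54 at 72 h (SE 0.50, adjusted p = 0.00013). These 2 sites were called higher at 72 h under all 5 scalings, and no HOXA site was called lower under all 5.

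Starts of HOXA3 itself moved the other way. The start site of HOXA3 at chr7:27150626-27151246 went from 3.83 and 4.06 CPM to 2.39 and 2.06 at 6 h and 2.30 and 1.68 at 72 h. It was called lower at both times, with -0.85 (adjusted p = 0.0356) and -0.99 (adjusted p = 0.00583). Another HOXA3 start, at chr7:27113354-27113802, was also lower at 72 h (-1.16, adjusted p = 0.0133).

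Posterior HOXA had 2 tested sites. The site between HOXA7 and HOXA9 (chr7:27160774-27161507), the HOXA site with a peak in all 6 libraries, had 5.20 and 5.21 CPM at 0 h, 3.16 and 3.45 after 6 h, and 2.59 and 1.96 after 72 h. These libraries did not overlap between times, and the site was called lower at 72 h (-1.20, SE 0.27, adjusted p = 0.000602). The HOXA10 start site had 1.82 and 2.34 CPM at 0 h, 1.62 and 1.65 after 6 h, and 1.76 and 1.37 after 72 h. Its 72 h libraries lay below those at 0 h, but it was not called (-0.42, adjusted p = 0.283). HOXA9 itself, HOXA11 and HOXA13 had no site at their starts.

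HOXB, which holds HOXB4, known for expanding blood stem cells, was the most open cluster. Its start site of HOXB9 (chr17:48624967-48627076) was the strongest of all 77, with 76.0 and 84.4 CPM at 0 h, 40.4 and 53.3 at 6 h, and 20.1 in both libraries at 72 h. The 3 times did not overlap, and the change was -0.77 at 6 h (SE 0.15, adjusted p = 0.00032) and -2.0 at 72 h (SE 0.16, adjusted p = 1.0e-09). This site was called lower at 6 h and at 72 h under all 5 scalings. The site at HOXB-AS4, beside MIR196A1 (chr17:48630995-48631611), had 19.1 and 22 CPM at 0 h, 10.7 and 11.5 after 6 h, and 5.80 and 7.13 after 72 h. It too was lower at both times under all 5 scalings, with -0.89 and -1.67 in edgeR's fit.

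The HOXB4 start site (chr17:48577939-48579105), the nearest to MIR10A, had 22.7 and 25.6 CPM at 0 h, 12.3 and 19.0 after 6 h, and 8.31 and 9.20 after 72 h. Its libraries did not overlap between times, with -0.60 at 6 h (SE 0.20, adjusted p = 0.0196) and -1.46 at 72 h (SE 0.20, adjusted p = 1.72e-06). A second HOXB4 site, 941 bases from the start, was called higher at 6 h (0.56, adjusted p = 0.0485) and not called at 72 h (0.12). The HOXB5 start site fell from 3.25 and 4.40 CPM to 1.53 and 2.21 and then to 1.09 in both 72 h libraries, which is -1.82 (adjusted p = 5.64e-05). HOXB7 had 12.1 and 13.5 CPM at 0 h, 10.1 and 12.6 after 6 h, and 6.37 and 6.47 after 72 h. It overlapped between 0 and 6 h and was called lower at 72 h (-1.0, adjusted p = 0.000212). The stronger of the 2 HOXB6 start sites was not called at 72 h, with 4.22 and 6.07 CPM at 0 h and 6.63 and 5.45 at 72 h. Counting every HOXB site within 1 kb of a start, 6 of 8 were called lower at 72 h, the other HOXB6 site among them. Of all gene-end sites 68.7% were.

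At the anterior end of HOXB, 1 site was strongly higher at 6 h. It lies between HOXB1 and HOXB2, 5488 bases from the HOXB2 start (chr17:48539095-48539621), and had 1.36 and 0.478 CPM at 0 h, 5.12 and 7.5 after 6 h, and 2.90 and 3.99 after 72 h. Its times did not overlap, and the highest level was at 6 h. The changes were 2.87 at 6 h (SE 0.39, adjusted p = 4.19e-06) and 1.97 at 72 h (SE 0.39, adjusted p = 0.000143), and both calls held under all 5 scalings. From 6 to 72 h it fell (-0.90, adjusted p = 0.0217). The next site towards HOXB1 (chr17:48536834-48537381) had 3.51 and 4.26 CPM at 0 h, 6.82 and 7.15 after 6 h, and 3.42 and 3.59 after 72 h. It was called higher at 6 h (0.84, adjusted p = 0.0113) and not at 72 h (-0.16, adjusted p = 0.598), where its libraries overlapped those at 0 h.

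The neighbour on the HOXB2 side, 2652 bases from its start, was not called at 6 h (-0.26, adjusted p = 0.337) and was lower at 72 h (-1.25, adjusted p = 2.28e-05).

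Further along on both sides the level was lower at 6 h. The site on HOXB1 (chr17:48528182-48528854) had 3.90 and 4.06 CPM at 0 h, 1.19 and 1.68 after 6 h, and 1.22 and 0.944 after 72 h. The 0 h libraries were far above the rest, with -1.41 at 6 h (adjusted p = 0.00229) and -1.88 at 72 h (adjusted p = 3.76e-05). The site in HOXB-AS1, 1646 bases upstream of HOXB2 (chr17:48546755-48547455), had 15.6 and 17.2 CPM at 0 h, 4.95 and 7.72 after 6 h, and 5.64 and 4.60 after 72 h. It was called lower at both times under all 5 scalings, with -1.33 and -1.68. A site beyond HOXB1 (chr17:48519364-48519856) went from 4.48 and 2.87 CPM to 1.79 and 1.71 and then 0.854 and 0.991, which was -1.06 at 6 h (adjusted p = 0.0195) and -1.97 at 72 h (adjusted p = 3.89e-05). The HOXB2 start site had 14.1 and 16.7 CPM at 6 h against 9.42 and 15.2 at 0 h, and was called lower at 72 h (-0.74, adjusted p = 0.00544). With scaling from shared peaks its change at 72 h was 0.24 and not lower. HOXB13, known from the prostate and set far from the others, had 1 site at the far end of its body, which was lower at 72 h (-0.90, adjusted p = 0.0106).

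In HOXC, the site at the start shared by HOXC4, HOXC5 and HOXC6 (chr12:54017403-54018847) was the strongest. It had 46.1 and 50.9 CPM at 0 h, 29.2 and 32.8 after 6 h, and 17 and 16.4 after 72 h. The times did not overlap, and the changes were -0.64 (SE 0.15, adjusted p = 0.00174) and -1.54 (SE 0.15, adjusted p = 2.02e-08). The start of HOXC13, a gene of hair and nail, lies inside the antisense gene HOXC13-AS (chr12:53938276-53939101) and had 16.4 and 12 CPM at 0 h, 5.54 and 4.68 after 6 h, and 4.35 and 3.02 after 72 h. Its times did not overlap, and it fell by 1.49 at 6 h (SE 0.25, adjusted p = 6.66e-05) and by 1.94 at 72 h (SE 0.25, adjusted p = 5.56e-07) on the log2 scale. The site between HOXC13 and HOXC12 (chr12:53948622-53950353) had 17.9 and 21.5 CPM at 0 h, 11.8 and 11.5 after 6 h, and 6.55 and 4.72 after 72 h, with -0.76 and -1.81. These 3 HOXC sites were called lower at 72 h under all 5 scalings, and HOXC13 at 6 h as well.

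The HOXC9 and HOXC10 start sites were not called at 6 h and were lower at 72 h. HOXC9, whose site is also within 1 kb of an end of HOXC-AS1, had 9.16 and 10.0 CPM at 0 h, 8.61 and 9.52 after 6 h, and 4.66 and 4.91 after 72 h. HOXC10 had 7.02 and 5.55, then 6.31 and 5.06, then 2.61 and 2.60 CPM. Neither was called at 6 h (-0.08 and -0.16), and both were at 72 h, with -1.01 (adjusted p = 0.000355) and -1.26 (adjusted p = 0.000191). The site at HOXC-AS2 (chr12:53994577-53996002), the second strongest of the cluster, went from 30.3 and 37.6 CPM to 27.7 and 30.7 and then 16.9 and 17.6, and it too was called only at 72 h (-0.98, adjusted p = 1.66e-05). At 72 h against 6 h HOXC had 8 lower sites of 21 tested (38.1%) and 0 higher by edgeR. HOXB had 16 lower of 26 (61.5%) and 0 higher. Both had 0 higher at an unadjusted p under 0.05 and 0 by DESeq2. Over all tested sites 20.9% were lower and 22.1% higher, and over gene-end sites 60.6% and 6.42%.

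Between HOXC11 and HOXC10 a site went up (chr12:53980014-53980612). It had 1.04 and 1.1 CPM at 0 h, 2.13 and 3.48 after 6 h, and 2.49 and 3.35 after 72 h. The 0 h libraries were below all others, with 1.44 at 6 h (SE 0.37, adjusted p = 0.00388) and 1.44 at 72 h (SE 0.36, adjusted p = 0.00138). The 6 h call held under all 5 scalings and the 72 h call did not. The HOXC11 start site, inside the body of the long noncoding RNA gene HOTAIR, had 0.455 and 0.478 CPM at 0 h, 1.45 and 1.04 after 6 h, and 0.544 and 0.873 after 72 h. It was called higher at 6 h (1.36, adjusted p = 0.0460) on 17 and 33 reads, and not at 72 h (0.60, adjusted p = 0.316).

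HOXD, whose posterior genes are known from limb and digit formation, had 7 of 19 sites (36.8%) called at 72 h, against 67.4% of all tested sites. Its strongest site lay at EVX2, the homeobox gene next to HOXD13 (chr2:176079241-176080613), with 21.0 and 19.9 CPM at 0 h, 15.9 and 15.0 after 6 h, and 13.9 and 15.4 after 72 h. The 0 h libraries were highest and those at 6 and 72 h overlapped, with -0.48 at 72 h (SE 0.17, adjusted p = 0.0188). With totals, loess offsets and shared peaks this became 0.02, 0.07 and 0.49. The HOXD8 start site (chr2:176129894-176130845) had 9.16 and 9.99 CPM at 0 h, 13 and 10.4 after 6 h, and 6.37 and 3.66 after 72 h. Its 72 h libraries were lowest but apart from each other, and the change was -0.94 (SE 0.25, adjusted p = 0.00219), or 0.03 with shared peaks.

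The HOXD10 start site, over the first promoter sequence printed above, had 2.53 and 2.68 CPM at 0 h, 1.28 and 1.84 after 6 h, and 1.32 and 1.09 after 72 h. Its 0 h libraries stood above the rest, and it was called lower at 72 h (-1.12, SE 0.35, adjusted p = 0.00739) and not at 6 h (-0.69, adjusted p = 0.134). The HOXD1 start site had 0.715 and 0.861 CPM at 0 h and 0.802 and 0.425 at 72 h, overlapping, and was not called (-0.38, adjusted p = 0.511). HOXD13 had 2.79 and 2.29 CPM at 0 h, 2.39 and 3.1 after 6 h, and 2.36 and 2.29 after 72 h. Its libraries at 6 h and at 72 h overlapped those at 0 h, and those at 72 h lay just below those at 6 h. The HOXD13 site was not called at 72 h against 0 h (-0.12, adjusted p = 0.734) or against 6 h (-0.27, adjusted p = 0.485). The start site of HOXD3 and HOXD4 was close to the limit of counting, with 8 and 16 reads at 0 h, 0 and 11 after 6 h, and 2 and 6 after 72 h. It was called lower at 72 h (-2.67, SE 0.78, adjusted p = 0.00457).

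One HOXD site was called higher at 72 h under all 5 scalings. In HAGLR, the antisense RNA gene next to HOXD1, a site at chr2:176176114-176176639 had 0.390 and 0.622 CPM at 0 h, 1.28 and 0.601 after 6 h, and 2.02 and 1.68 after 72 h. Both 72 h libraries were above the others, with 1.82 (SE 0.47, adjusted p = 0.00181). The site between HOXD12 and HOXD11 (chr2:176104134-176104796) had 1.36 and 2.01 CPM at 0 h, 3.67 and 3.35 after 6 h, and 2.54 and 2.01 after 72 h. It was called higher at 6 h only (1.03, SE 0.34, adjusted p = 0.0183). The site between HOXD13 and HOXD12 (chr2:176097395-176098091), with a peak in all 6 libraries, fell from 10.3 and 10.0 CPM to 5.46 and 5.31 at 72 h (-0.92, adjusted p = 0.000975), or 0.05 with shared peaks.

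**Figure D5:**
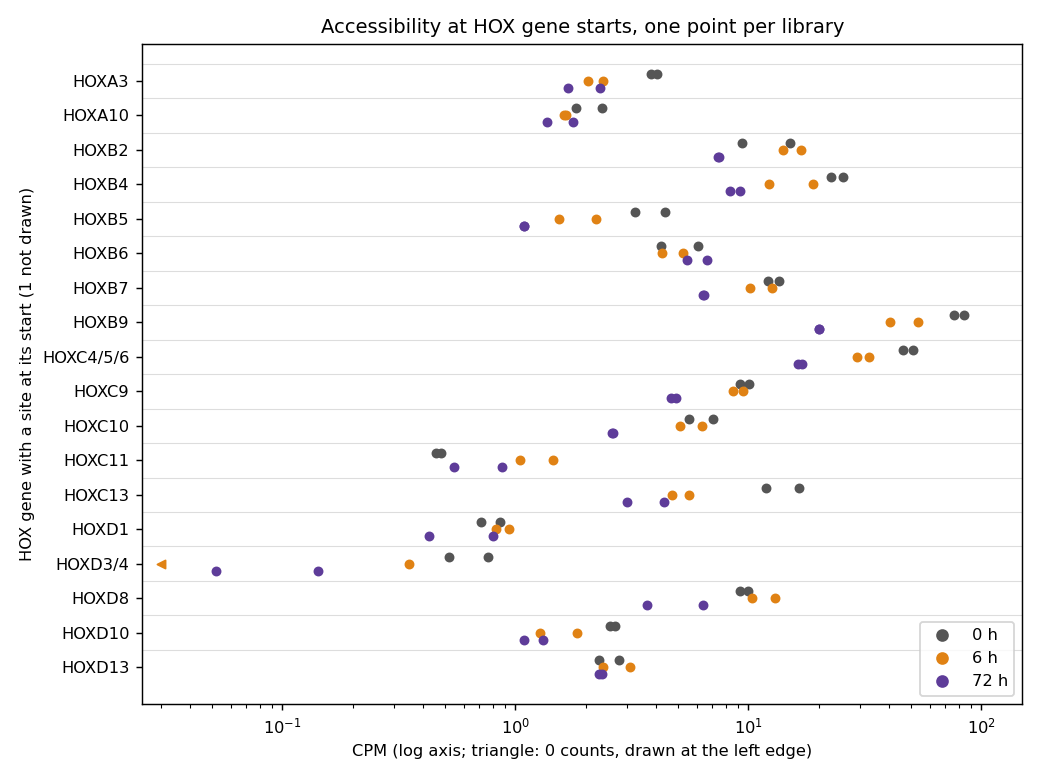
CPM (x axis, log scale) of the site at each HOX gene start (y axis), one point per library, coloured by hours of PMA; where a gene has several start sites the strongest is drawn, 1 start is left out, and a triangle marks 0 counts. HOXB9 and the shared HOXC4, HOXC5 and HOXC6 start are the highest at each time.

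Over the 19 distinct start sites, 13 were called lower at 72 h, where 68.7% of gene-end sites were. At 6 h 6 were called lower, where 36.2% of gene-end sites were, and 1 higher, HOXC11. Between 6 and 72 h 8 were lower, where 60.6% of gene-end sites were. Paralogues with start sites in more than 1 cluster are given side by side, by the change at 72 h. In group 3, HOXA3 (-0.99) and the start shared by HOXD3 and HOXD4 (-2.67) were lower. In group 4, HOXB4 and the shared starts of HOXC4 and HOXD4 were all lower, at -1.46, -1.54 and -2.67. In group 5, HOXB5 (-1.82) and the shared start of HOXC5 (-1.54) were lower. In group 6, the shared start of HOXC6 (-1.54) was lower. Of the 2 HOXB6 start sites the stronger (0.22) was not called and the other was lower. In group 9, HOXB9 (-2.0) and HOXC9 (-1.01) were lower and HOXA9 and HOXD9 had no start site. In group 10, HOXC10 (-1.26) and HOXD10 (-1.12) were lower and HOXA10 (-0.42) was not called. In group 13, HOXC13 (-1.94) was lower and HOXD13 (-0.12) was not called. The differences between paralogues were not tested.

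Of the 38 lower HOX sites at 72 h, 11 were called lower under all 5 scalings, 8 in HOXB and 3 in HOXC. They were the start sites of HOXB4, HOXB5, HOXB9, HOXC13 and HOXC4 to HOXC6, and the sites at HOXB1, beyond HOXB1, upstream of HOXB2, between HOXB8 and HOXB9, at HOXB-AS4 and between HOXC13 and HOXC12. Of the 8 higher sites, 4 were called under all 5: the 2 HOXA3 sites, the site between HOXB1 and HOXB2 and the HAGLR site. At 6 h this held for 2 higher and 6 lower sites. Between 6 and 72 h it held for 1 higher site, that near HOXA4, and for none of the 26 lower sites in edgeR's fit. The share of all tested sites whose call held under all 5 scalings was not computed. Whether these counts are above or below that of other sites is therefore not known.

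Genes that work with HOX proteins or set the state of the clusters were read at their own starts or, as above, at either end. The TALE homeobox proteins of the PBX, MEIS and PKNOX families bind DNA together with HOX proteins, and 8 of 9 such genes had a site so placed. At 72 h 6 of the 8 were called lower and 1 higher, and at 6 h 4 were lower and 2 higher. Of all gene-end sites 68.7% were lower and 12.3% higher at 72 h, and 36.2% and 9.96% at 6 h. The MEIS3 start site had a mean of 1.48 CPM before treatment, rose to 11.1 after 6 h and was at 7.24 after 72 h (2.89 and 2.27), while MEIS1 fell from 25.1 to 16.5 and 8.46 CPM (-0.61 and -1.57). PBX3 was higher at 6 h only (1.03, adjusted p = 0.00816). All 4 upstream regulators with a site, KMT2A, MEN1 and ASH1L at the start and DOT1L at either end, were lower at 72 h, with a median of -1.62. The 3 CDX genes had none. All 12 Polycomb genes with a site so placed, of 13, were lower at 72 h, with a median of -1.58, from BMI1 at -2.04 to EZH1 at -0.78. Their share has to be read against the 68.7% of gene-end sites called lower.

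Sites of genes that flank the clusters were mostly lower at 72 h, as were most gene-end sites. Of 12 flanking genes 9 had a site at the start or at either end, and 8 of these were called lower at 72 h, with a median of -1.25. Among all gene-end sites 68.7% were called lower, with a median of -1.16. One of the flanking genes, PRAC2, shares its site with HOXB13. LNPK and MTX2, on either side of HOXD, came to -1.08 and -1.35, and HIBADH, beyond HOXA, to -1.25. Of 21 noncoding genes in the clusters, 10 had a site at the start or at either end, 8 of which were lower at 72 h. This count too has to be read against the gene-end share. Several of these noncoding genes share their site with a HOX gene, so they are not further evidence. Of the 3 ParaHox genes, the sister group of the clusters, PDX1 had a site at either end and it was not called (-0.91, adjusted p = 0.0929).

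In the authors' deposited table, 38 of the 77 HOX sites (49.4%) had an adjusted p under 0.05, against 57.3% of all sites. The log2 fold changes at 72 h in the authors' deposited table were -2.16 for the HOXB9 start and 2.06 for the HOXA-AS2 site. Its class column lists 72 of the sites as static. For 3 of the 5 others the class name goes against the sign of the authors' own 72 h value, so class names were not used.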

How the data were processed

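The 6 libraries and 39 HOX genes are described above. The members and the gene lists were chosen with earlier results of these data known. The authors deposited raw counts per site and library, with log2 fold changes, 1 adjusted p-value for each site and a class name. The submitters' processing notes name Trim Galore 0.4.3, BWA 0.7.17, SAMtools 1.9, deepTools 3.0.1, bedtools 2.26, MACS2, DESeq and the build hg38, with no role or order. How the site list was made and whether read ends were shifted for the transposase are not given in the sources used here. Deposited peak lists, 1 per library and without header, hold the authors' score, a fold enrichment ratio and −log10 p-values, and served only for overlap.

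Counts were fitted with edgeR 4.0.16 (R 4.3.3, limma 3.58.1): TMM, filterByExpr with a minimum of 10 counts, which removed 3376 of 181135 sites, a quasi-likelihood fit of the 3 time groups to all 6 libraries, and Benjamini-Hochberg adjustment over all tested sites. For cluster sums, counts of a cluster's sites were added and replaced them in the table. The procedure was checked on simulated data with known changes. The common coefficient of variation was 0.166, and replicates differed beyond sampling noise (chi-square per degree of freedom 3.50 to 4.67). Deposited starts were read as 0-based, since they equal peak starts in 20.6% of sites and 1.32% when shifted by 1, and are printed 1-based on hg38. The gene table (GRCh38.p14) gives gene intervals without exons, so exon, intron and UTR are not stated. Where the promoter table holds no entry for a HOX gene, its strand was taken from the other genes of its cluster. A start site is the site within 1 kb of an annotated start, the strongest where there were several; genes of the other lists without a promoter entry were read within 1 kb of either gene end.

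Named sites were, by rule, the strongest site of each cluster, up to 3 called sites per cluster, direction and time with a mean of at least 1 CPM and no overlap between libraries, and each tested start site. Sites outside this rule were chosen after their values were seen: those beside microRNA genes, the sites at HOXC-AS2, at HOXB13 and beside HOXB2, the site between HOXD8 and HOXD4, and the sites called under all 5 scalings. Results for 1 HOX gene and 1 marker gene are not reported here. Alternatives were 4 scalings, 2 count filters, DESeq2 1.42.0, a replicate block, fits of 2 groups, each library left out, gene bodies extended by 0 or 50 kb, and a stricter threshold. Those for cluster ratios were chosen after seeing the data.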

Additional observations from a re-analysis of the deposited data

How the results depend on the processing

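Counts of HOX sites called were 22 at 6 h, 46 at 72 h and 28 between 6 and 72 h. With gene bodies not extended they were 10, 29 and 17, with 50 kb 42 and 75 in the first pair, and at the stricter threshold 6, 30 and 9. TMM from shared peaks left 12 at 72 h against 6 h. Without 1 library each they ran from 14 to 19, 32 to 47 and 15 to 30. The lowest at 6 h was without 6 h replicate 1, and the lowest at 72 h without 72 h replicate 2. Between 6 and 72 h the lowest count was the same without 6 h replicate 2, 72 h replicate 1 or 72 h replicate 2.

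Cluster sums kept their direction under RLE, both filters, DESeq2 and fits of 2 groups, except HOXA at 72 h against 0 h under RLE (-0.00, not called). Loess offsets turned all sums of HOXB, HOXC and HOXD: 0.39, 0.24 and 0.35 at 6 h, then 1.18, 0.80 and 1.16 after 72 h, then 0.78, 0.55 and 0.81 between those times, and gave HOXA 0.85 at 72 h. Those offsets are read at the abundance of the sum, which exceeds that of its single sites. Shared peaks gave -0.17 in HOXB and -0.13 in HOXC at 6 h, then 1.15 in HOXA, -0.24 in HOXC and 0.55 in HOXD at 72 h, and -0.084, -0.11 and 0.37 in HOXB, HOXC and HOXD at 72 h against 6 h. Totals gave HOXA 0.68 and HOXD 0.081 at 72 h. Without extension HOXA was 0.46 at 72 h (called) and HOXD -0.81 at 72 h against 6 h (called), and with 50 kb HOXD was -0.29 at 72 h (not called). HOXA at 72 h against 6 h was 0.41 with RLE, 0.41 with DESeq2 and 0.29 with 50 kb, none called. The causes were not tested.

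Without 1 library each, HOXA at 72 h against 6 h ran from 0.37 to 0.58, HOXB at 6 h from -0.71 to -0.30, HOXC at 6 h from -0.56 to -0.35, and HOXD at 72 h from -0.50 to -0.35.

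The difference between replicate 1 and replicate 2 at each site was compared between time points. Its correlation was 0.069 for 0 and 6 h, 0.048 for 0 and 72 h, and 0.077 for 6 and 72 h. Whether libraries with the same replicate number belong together is not settled by these values. With the replicate number as a block the counts were 23, 47 and 28, and HOXD at 72 h against 6 h became called at -0.31.

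Log2 ratios of clusters at 72 h against 0 h, by alternatives chosen after seeing the data, were 0.82, 0.89, 0.21, 0.063, -0.61 and -0.68 without the strongest site of each cluster (HOXA to HOXB, HOXC and HOXD, HOXB to HOXC and HOXD, HOXC to HOXD). With no extension they were 1.68, 1.82, 1.19, 0.13, -0.49 and -0.63, and with 50 kb 1.05 for HOXA to HOXB, 0.36 for HOXB to HOXC, -0.57 for HOXB to HOXD and -0.92 for HOXC to HOXD.

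Of 1615 values of named sites, 1438 kept direction and call, 130 lost the call, 36 gained it and 11 turned. With shared peaks the sites turned at 72 h were 0.81 between HOXB1 and HOXB2 (peak73158), 0.24 at HOXB2 (peak73161), 0.49 at EVX2 (peak96870), 0.84 at HOXD13 (peak96871), 0.049 near HOXD12 (peak96873) and 0.034 at HOXD8 (peak96878), and at 72 h against 6 h 0.60 at EVX2 and 0.089 near HOXD12. Totals gave EVX2 0.021 at 72 h, and loess offsets 0.067, or 0.49 at 72 h against 6 h. Sites under about 1 CPM rest on few reads, and their changes are known least well.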
